A study of Mus musculus with 16 samples.

Results

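The genes described here are 10 factors that remove DNA methylation or govern its maintenance. They are the 3 methylcytosine oxidases Tet1, Tet2 and Tet3, the DNA glycosylases Tdg and Smug1, the maintenance cofactor Uhrf1 with its paralogue Uhrf2, the deubiquitinase Usp7, the transcriptional regulator Prdm14 and the stress-response gene Gadd45a. They were taken by name, as every non-control probe whose RefSeq identifier belongs to one of the genes. This gave 10 of the 21154 named genes on the array and 19 of its 55681 probes. Of these 19 probes, 18 were tested, because in 1 group or more all arrays had them well above background. A probe of Tet3 (A_51_P199339) did not exceed background on any array.

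The RNA came from mouse embryonic stem (ES) cells grown in either of 2 media, and was hybridised to 16 one-colour arrays in 6 groups. Serum medium held fetal calf serum and leukaemia inhibitory factor (LIF) at 500 U/ml. The 2i medium was serum-free, with LIF at 1000 U/ml, 1 µM of the MEK inhibitor PD0325901 and 3 µM of the GSK3 inhibitor CHIR99021, for 2 weeks. J1 is a wild-type male ES line (4 arrays in serum, 3 in 2i). TKO cells lack Dnmt1, Dnmt3a and Dnmt3b and so have no DNA methyltransferase (2 arrays in serum, 3 in 2i). The line 3B3-3l lacks the endogenous Dnmt3a and Dnmt3b and carries constitutively expressed Dnmt3b and Dnmt3l transgenes (2 arrays in each medium). According to the study's methods J1 in serum grew on inactivated SNLP feeder cells, and the other cell lines were free of feeders. The methods do not state whether J1 in 2i had feeders. The labels do not say whether replicates were separate cultures, so the p-values may measure technical spread only.

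As background, the TET proteins oxidise methylcytosine to hydroxymethylcytosine and then to formyl- and carboxylcytosine, which TDG cuts out so that base excision repair can restore an unmodified base. UHRF1 works in the opposite direction. It binds hemimethylated DNA behind the replication fork and brings in DNMT1, and USP7 removes ubiquitin from both proteins. PRDM14 is known in ES cells as a repressor of the de novo methyltransferases, and cells in 2i are known to carry less DNA methylation than cells in serum.

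Levels are given as log2 of the array signal over that array's 75th percentile, so a level of 0 is the 75th percentile and levels of different probes are not comparable. Differences were tested with limma over all 27126 tested probes, with Benjamini-Hochberg adjustment. A difference passed when its adjusted p was 0.05 or less, and was called when it also reached 2-fold. A gene counts as called when at least 1 of its probes was. The 75th percentile lay between 1019 and 1797 intensity units, and 39.7 to 49.0% of spots per array were well above background. No probe of the 10 genes was saturated on any array.

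The labels were checked first. Dnmt1 had levels of 1.61 to 1.91 in J1 in serum and of -1.70 to -1.65 in TKO in serum. In TKO and 3B3-3l no array had Dnmt3a well above background. A Dnmt3b probe (A_55_P1975903) stood at 5.44 to 6.01 on the 4 arrays of 3B3-3l, against 2.88 to 3.08 in J1 in serum, and its other 2 probes did not exceed the J1 serum level in 3B3-3l. All 8 ES cell markers were well above background on all 16 arrays, with a summed linear level of 250.1 to 406. J1 in serum stood apart in markers of other cells. Of 20 fibroblast markers 11 to 14 were well above background there, and their summed level was 26.1 to 32.4. That sum was 5.47 to 6.86 in TKO in serum, 11.4 to 13.8 in 3B3-3l in serum and 2.45 to 4.64 on the arrays of 2i. All 7 primitive endoderm markers were detected in J1 in serum (sum 11.8 to 13.3), and their sum was 1.32 to 1.79 in the other serum groups and 0.448 to 0.984 in 2i. The part that these markers' cells have in any difference from J1 in serum was not tested, and in bulk RNA fewer cells of a type cannot be told apart from less RNA per cell.

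**Figure D1:**
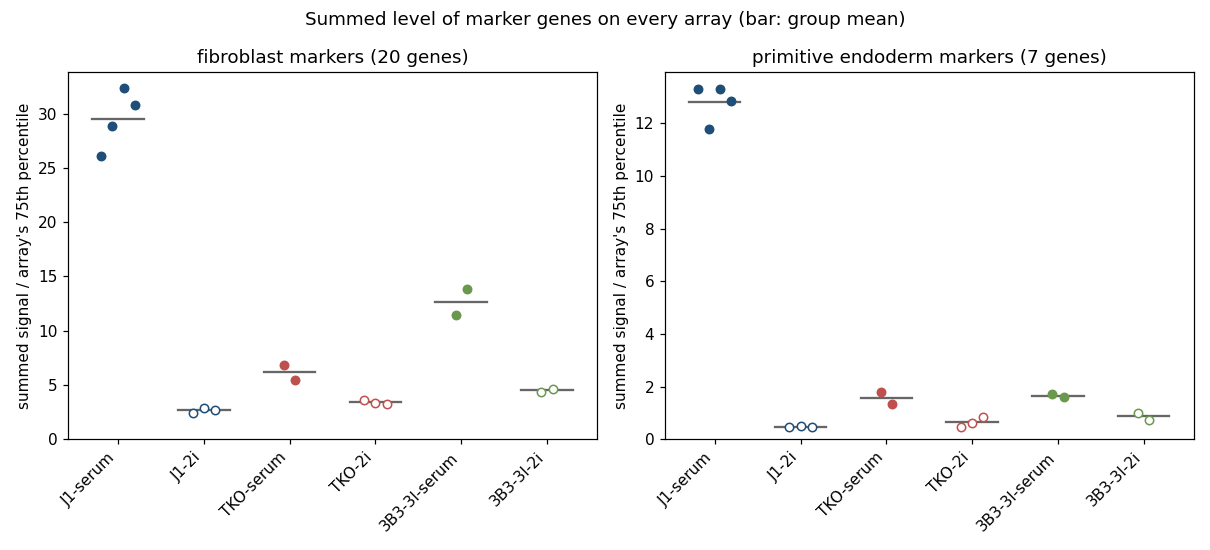
Summed linear level (signal over the array's 75th percentile) of 20 fibroblast and 7 primitive endoderm markers on each array, by group. Filled points are serum, open points 2i, and bars are group means. J1 in serum lies above every other group in both panels.

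The first question was how each factor differs between 2i and serum in each line. Prdm14 was higher in 2i in all 3 lines, Gadd45a was lower in all 3, and Uhrf1 and Smug1 rose in all 3. Tet2 rose in J1 and 3B3-3l. Tet1 rose in J1 but fell in TKO and 3B3-3l on its brighter probe, under 2-fold in each, and its second probe passed in TKO alone. In J1, 7 of the 10 genes were called, against 25.3% of all 13903 named genes tested there. In TKO 4 were called against a background of 17.7%, and in 3B3-3l 5 against 14.9%.

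**Figure D2:**
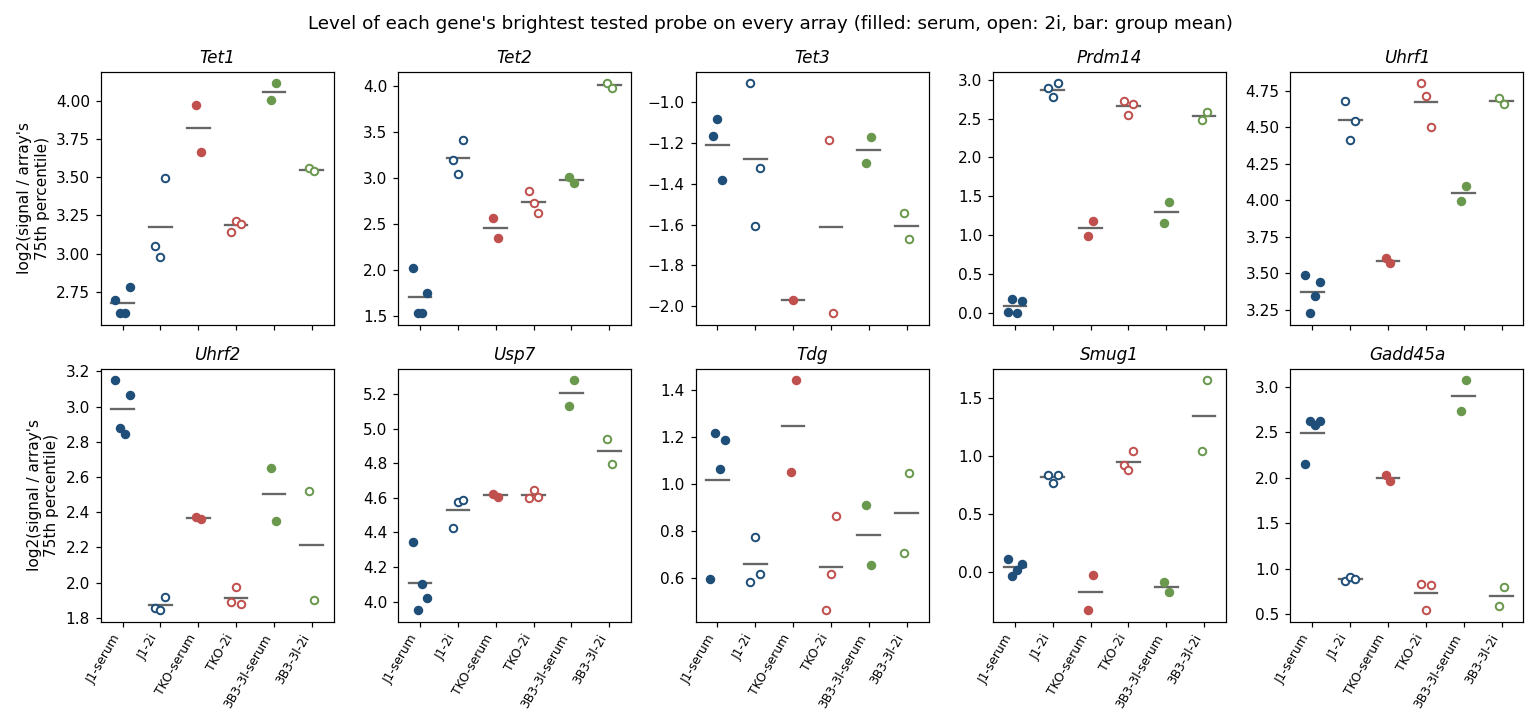
Level of the brightest tested probe of each gene on every array, as log2 of signal over the array's 75th percentile. Each panel has its own axis. Prdm14, Uhrf1 and Smug1 are higher in 2i than in serum in every line and Gadd45a is lower, with no overlap between the media within a line.

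**Figure D3:**
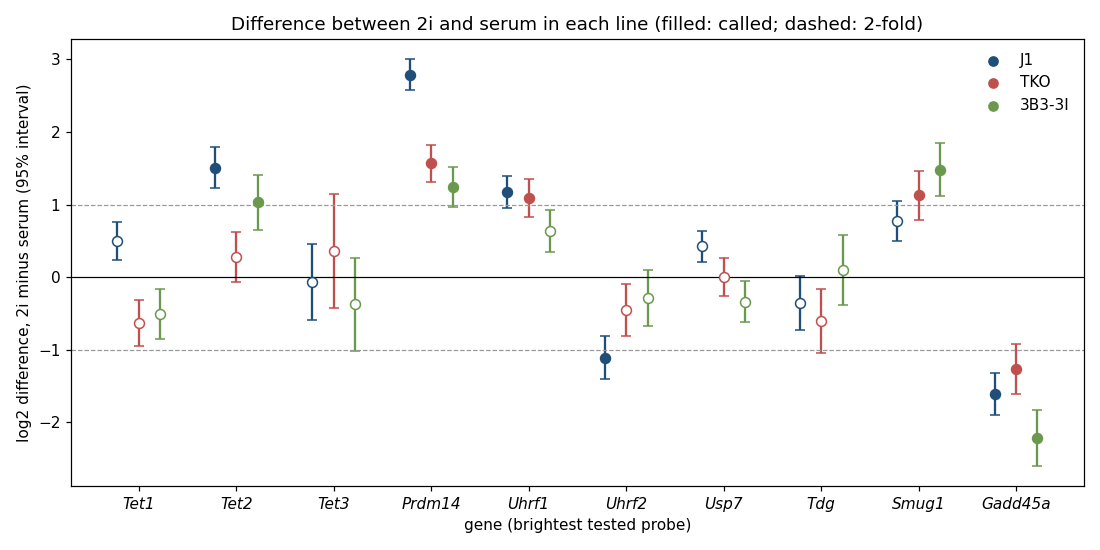
Log2 difference between 2i and serum for the brightest tested probe of each gene in J1, TKO and 3B3-3l, with unadjusted 95% intervals from the limma fit. Filled points were called. Prdm14 has the highest point (2.79, J1) and Gadd45a the lowest (-2.21, 3B3-3l).

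Prdm14 (chr1:13113428-13127163, GRCm38.p6) had 1 probe. Its levels in J1 in serum were 0.013, 0.17, -0.0033 and 0.15, and in J1 in 2i 2.89, 2.77 and 2.95. TKO read 1.00 and 1.19 in serum, with 2.73, 2.55 and 2.69 in 2i, and 3B3-3l read 1.16 and 1.43 in serum and 2.48 and 2.59 in 2i. The 4 J1 serum arrays are thus the lowest of the 16, and the 3 groups in 2i lie close together. The rise in 2i was 6.91-fold in J1 (log2 2.79 ± 0.10 SE, adjusted p = 2.7e-10), 2.96-fold in TKO (1.57 ± 0.12, adjusted p = 4.4e-07) and 2.37-fold in 3B3-3l (1.25 ± 0.13, adjusted p = 1.2e-05). The responses were smaller than in J1, with differences of -1.22 ± 0.15 log2 units in TKO (adjusted p = 8.4e-05) and -1.54 ± 0.16 in 3B3-3l (adjusted p = 1.7e-05).

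Beside these responses stand the serum levels. In serum Prdm14 was higher than in J1 by 1.01 in TKO (adjusted p = 1.3e-05) and by 1.21 in 3B3-3l (adjusted p = 2.3e-06), and in 2i it was lower than in J1 in 3B3-3l (-0.33, adjusted p = 0.038), while TKO differed by -0.21 (adjusted p = 0.16). The TKO difference in serum lies at the 2-fold limit. It was 0.98 without J1-serum replicate 1 or replicate 3, 0.91 without TKO-serum replicate 2, 0.99 with slide as a block, 0.98 with scan day as a block and 0.96 under normexp background correction, each with an adjusted p under 0.05 but under 2-fold. Of 7 Prdm14 partners, genes of Polycomb repressive complex 2 and germ cell factors, 5 rose and none fell in J1 in 2i, against 32.6% of named genes that rose and 27.2% that fell, and the median of the 7 was 0.43 (0.05 over all named genes). Tfap2c, a germ cell transcription factor, rose by 1.38 in J1, and differed by -0.11 in TKO. It fell by 0.65 in 3B3-3l. In TKO 1 of the 7 rose and 1 fell, where 22.8% and 19.8% of named genes did, and in 3B3-3l 1 rose and 3 fell, where 17.4% and 17% did. These shares count a gene on any of its probes, and the list counts use its brightest. Jarid2, an accessory subunit of that complex, fell by 1.03 in both TKO and 3B3-3l. Prdm1, a related zinc finger repressor, was not well above background in 3B3-3l in 2i and was at least 1.99-fold higher there in serum (adjusted p = 0.0059).

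Tet1 (chr10:62804570-62887469) had 2 probes. On the brighter one (A_55_P2122997) J1 read 2.70, 2.61, 2.61 and 2.78 in serum and 3.05, 2.98 and 3.49 in 2i. TKO read 3.97 and 3.67 in serum and 3.14, 3.21 and 3.20 in 2i, and 3B3-3l read 4.01 and 4.11 in serum and 3.56 and 3.54 in 2i. Tet1 thus rose in 2i in J1 and fell in both mutant lines, and media did not overlap within any line. The differences were 0.50 ± 0.12 in J1 (adjusted p = 0.0043), -0.63 ± 0.15 in TKO (adjusted p = 0.0046) and -0.51 ± 0.16 in 3B3-3l (adjusted p = 0.034), all under 2-fold. The responses of TKO and J1 differed by -1.13 ± 0.19 (adjusted p = 0.00077), and those of 3B3-3l and J1 by -1.01 ± 0.20 (adjusted p = 0.0024).

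The second Tet1 probe (A_51_P512172) gave the same direction in the mutants and none in J1. In J1 it read 2.09, 1.93, 1.81 and 2.11 in serum and 1.90, 1.82 and 2.32 in 2i, which overlap (difference 0.03 ± 0.14, adjusted p = 0.88). It fell by 0.83 in TKO (adjusted p = 0.0024) and differed by -0.54 in 3B3-3l (adjusted p = 0.056). Its response in TKO differed from that in J1 by -0.86 (adjusted p = 0.013), and in 3B3-3l by -0.57 (adjusted p = 0.10). Without TKO-serum replicate 2 the TKO response was -1.02 and its difference from J1 -1.05, both past 2-fold. In serum both probes were higher than in J1 in TKO (1.14 and 0.82) and in 3B3-3l (1.38 and 0.78), all at an adjusted p of 0.0018 or lower. In 2i, TKO differed from J1 by 0.01 (95% interval -0.27 to 0.29) on the brighter probe. The 2i mean of that probe was 3.55 in 3B3-3l and 3.18 in J1, a difference that did not pass. On this brighter probe the TKO serum difference was 0.99 without TKO-serum replicate 1, and its TKO difference of response from J1 was under 2-fold without that array (-0.98) or without J1-2i replicate 3 (-0.97). On the second probe the TKO serum difference was 1.00 without TKO-serum replicate 2, past 2-fold. The 3B3-3l difference of responses from J1 on the brighter probe was under 2-fold without any 1 of 5 arrays: J1-serum replicate 2 (-0.99) or 3 (-0.99), J1-2i replicate 3 (-0.85), 3B3-3l-serum replicate 2 (-0.95) and 3B3-3l-2i replicate 2 (-0.998). Quantile normalization gave -0.98 and the deposited table -0.97.

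Tet2 (chr3:133463677-133545136) had 2 probes that followed each other. On the brighter (A_55_P2081303) J1 read 2.02, 1.53, 1.53 and 1.75 in serum and 3.20, 3.04 and 3.41 in 2i. TKO read 2.57 and 2.35 in serum and 2.86, 2.73 and 2.62 in 2i. 3B3-3l read 3.01 and 2.95 in serum and 4.03 and 3.99 in 2i. The 2i level was thus highest in 3B3-3l and lowest in TKO, with no overlap among the 3 groups. Tet2 rose 2.85-fold in J1 (1.51 ± 0.13, adjusted p = 8.8e-07) and 2.04-fold in 3B3-3l (1.03 ± 0.17, adjusted p = 0.00066). In TKO the difference was 0.28 ± 0.16 (adjusted p = 0.21, interval -0.07 to 0.62), and it differed from that in J1 by -1.23 ± 0.21 (adjusted p = 0.00075). The second probe (A_55_P2051405) gave 1.63 in J1, 0.48 in 3B3-3l and 0.35 in TKO, with differences of response from J1 of -1.28 in TKO (adjusted p = 0.00019) and -1.15 in 3B3-3l (adjusted p = 0.00056). On the brighter probe the 3B3-3l response differed from that of J1 by -0.48 (adjusted p = 0.13), so the probes gave different sizes there. Without 3B3-3l-serum replicate 2 the 3B3-3l response of the brighter probe was 0.999, and both quantile normalization and the deposited table gave 0.95, all under 2-fold. In the unmoderated test its adjusted p was 0.08.

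Among lines, Tet2 was higher than in J1 in serum in TKO (0.75, adjusted p = 0.0014) and in 3B3-3l (1.27, adjusted p = 1.9e-05). In 2i it was lower than J1 in TKO (-0.48, adjusted p = 0.027) and higher in 3B3-3l (0.79, adjusted p = 0.0019). The difference of 3B3-3l from TKO in 2i was 2.42-fold (1.27 ± 0.16, adjusted p = 7.9e-05). All 3B3-3l arrays were on 1 slide. With slide as a block the serum difference of 3B3-3l from J1 was 0.96 and the 2i difference from TKO 0.86, both past the adjusted p and under 2-fold.

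Tet3 (chr6:83362373-83457208) was the weakest of the oxidases to measure. On its brighter tested probe (A_52_P491273), 3 arrays had outlier spots that were left out (J1-serum replicate 1, TKO-serum replicate 2 and TKO-2i replicate 3). The remaining levels were -1.16, -1.08 and -1.38 in J1 in serum and -0.91, -1.61 and -1.32 in 2i. TKO read -1.97 in serum, with -1.19 and -2.04 in 2i, and 3B3-3l read -1.30 and -1.17 in serum and -1.54 and -1.67 in 2i. No difference of this probe passed the test in any of the 12 comparisons, but with the replicate block it was called lower in TKO than in J1 in serum (-1.18, adjusted p = 0.035). The 2i intervals were -0.59 to 0.46 in J1, -0.42 to 1.15 in TKO and -1.02 to 0.27 in 3B3-3l. With 1 array left in TKO in serum, the TKO interval takes its spread from the other groups. The other tested probe (A_55_P2175260) was called lower in 2i in J1 (-1.38 ± 0.43, adjusted p = 0.018), but its media overlapped. J1 read 0.068, -1.92, -1.34 and -1.28 in serum and -3.50, -1.80 and -2.20 in 2i, with 2 of the 3 arrays in 2i well above background. Without J1-serum replicate 1 the difference was -0.99, and without J1-2i replicate 1 it was -0.88 (adjusted p = 0.10). The call was also lost with slide or scan day as a block (-0.99), under normexp (-0.90), with the replicate block (adjusted p = 0.0507), in a limma fit of the groups compared alone (adjusted p = 0.083) and in the unmoderated test (adjusted p = 0.15).

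Uhrf1 (chr17:56303337-56323486) is shown with its sequences because it rose in every line on both of its probes. The sequences come from the RefSeq table of GRCm38.p6, which holds 2 starts for Uhrf1 and a window for 9 of the 10 genes. Each window is the 250 bases before a start, read 5′ to 3′ on the gene's strand, and 13 words were searched on both strands. They were the E2F words TTTCCCGC, TTTGGCGC, TTTCGCGC and TTCCCGCC, of which the first and last can overlap, with CCAAT, the octamer ATGCAAAT, the E-box CACGTG, the cAMP response word TGACGTCA, the STAT word TTCNNNGAA, the ETS core CCGGAA, the TCF words CTTTGAA and CTTTGAT, and the Esrrb word TCAAGGTCA. They were picked with these windows in view. Capitals mark matches. An E2F word was found before both Uhrf1 starts, and in 2.92% of all 32841 windows. CCAAT was found before both as well, and in 33.9% of all windows. The array probe A_66_P120074, of 60 bases, is given with them, in lower case throughout.
Uhrf1, first start, chr17:56303087-56303336, + strand: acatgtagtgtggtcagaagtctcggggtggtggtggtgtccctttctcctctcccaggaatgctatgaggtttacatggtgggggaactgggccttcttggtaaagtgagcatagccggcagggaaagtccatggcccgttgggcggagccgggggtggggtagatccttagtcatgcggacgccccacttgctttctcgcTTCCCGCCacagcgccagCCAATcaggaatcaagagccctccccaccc
Uhrf1, second start, chr17:56304063-56304312, + strand: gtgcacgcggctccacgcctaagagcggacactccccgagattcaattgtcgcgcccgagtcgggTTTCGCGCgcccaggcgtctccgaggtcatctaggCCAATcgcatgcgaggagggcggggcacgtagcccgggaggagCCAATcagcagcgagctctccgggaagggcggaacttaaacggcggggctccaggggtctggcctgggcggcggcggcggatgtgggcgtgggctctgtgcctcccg
Uhrf1 probe A_66_P120074: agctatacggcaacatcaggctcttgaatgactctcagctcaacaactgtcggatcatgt

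The brighter Uhrf1 probe (A_55_P2035286) read 3.49, 3.23, 3.34 and 3.44 in J1 in serum and 4.68, 4.42 and 4.55 in 2i. TKO read 3.60 and 3.57 in serum and 4.80, 4.71 and 4.50 in 2i, and 3B3-3l read 3.99 and 4.10 in serum and 4.70 and 4.66 in 2i. The 8 arrays in 2i all lie above the 8 in serum. The rise was 2.26-fold in J1 (1.18 ± 0.10, adjusted p = 7.1e-07), 2.13-fold in TKO (1.09 ± 0.12, adjusted p = 1.5e-05) and 1.55-fold in 3B3-3l (0.63 ± 0.13, adjusted p = 0.0031). On the probe A_66_P120074 J1 read -0.49, -0.17, -0.22 and -0.13 in serum and 1.21, 1.27 and 1.24 in 2i, a rise of 1.49 ± 0.13. TKO read 0.78 and 0.48 in serum and 1.09, 1.46 and 1.59 in 2i, and 3B3-3l read 0.49 and 0.26 in serum and 1.55 and 1.48 in 2i, rises of 0.75 ± 0.16 and 1.14 ± 0.17. These also separate the media across all 16 arrays. The probes differed in which mutant had the smaller rise. The difference of response from J1 was -0.54 in 3B3-3l on the brighter probe (adjusted p = 0.028; TKO -0.09, adjusted p = 0.73), and -0.74 in TKO on the other (adjusted p = 0.019; 3B3-3l -0.35, adjusted p = 0.27). In 2i the mutant lines differed from J1 by 0.12 to 0.28 over both probes, and none of these passed. In serum 3B3-3l was higher than J1 on both (0.67, adjusted p = 0.00035, and 0.63, adjusted p = 0.0041), and TKO on the second alone (0.88, adjusted p = 0.00045, against 0.21, adjusted p = 0.17). Without TKO-serum replicate 2 that value of 0.88 was 1.03, past 2-fold. In the authors' deposited table the TKO rise of the brighter probe was 0.995, under 2-fold.

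Among 10 partners of maintenance methylation, 5 rose and 1 fell in J1 in 2i, 3 rose and none fell in TKO, and 1 rose and 1 fell in 3B3-3l, against the shares of all named genes given above (32.6%, 22.8% and 17.4% rose). Medians were 0.28, 0.13 and 0.03. None of them was called higher, and Ehmt2, a histone methyltransferase, was called lower in 3B3-3l (-1.02). Chaf1b, a subunit of the replication-coupled histone chaperone, rose by 0.75, 0.82 and 0.59 in the 3 lines, and Dnmt1 by 0.57 in J1. Of 19 tested S phase genes, which include the replicative helicase subunits, 7 rose in J1, 3 in TKO and 2 in 3B3-3l, where 32.6%, 22.8% and 17.4% of named genes rose. In each line 1, Ccne1, fell (-0.92, -0.67 and -0.90), where 27.2%, 19.8% and 17% did. The medians of the 19 were 0.27, 0.28 and 0.06 against 0.05, 0.07 and 0.003 over all named genes. E2f1 rose in all 3 (0.52, 0.52 and 0.62).

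Uhrf2 (chr19:30030430-30093726), the paralogue of Uhrf1, went the other way. Its brighter probe (A_51_P141772) read 3.15, 2.88, 2.85 and 3.07 in J1 in serum and 1.86, 1.84 and 1.92 in 2i. TKO read 2.37 and 2.36 in serum and 1.89, 1.97 and 1.88 in 2i, and 3B3-3l read 2.65 and 2.35 in serum and 2.52 and 1.90 in 2i. J1 in serum was the highest group, and the media overlapped in 3B3-3l alone. The fall in J1 was 2.16-fold (-1.11 ± 0.14, adjusted p = 1.9e-05), and the differences in TKO (-0.45, adjusted p = 0.051) and 3B3-3l (-0.29, adjusted p = 0.30) did not pass. Under scaling to each array's median the J1 value was -0.95, under 2-fold. On the second probe (A_52_P220485) it fell in J1 (-1.58, adjusted p = 1.4e-07) and in TKO (-0.81, adjusted p = 0.00047), with -0.39 in 3B3-3l (adjusted p = 0.076). The 3B3-3l response differed from that of J1 by 1.19 on this probe (adjusted p = 0.00044) and by 0.82 on the brighter one (adjusted p = 0.016; 1.13 without 3B3-3l-2i replicate 2). The TKO response differed by 0.77 (adjusted p = 0.0062) and 0.66 (adjusted p = 0.037). In serum Uhrf2 was lower than in J1 on both probes in TKO (-0.62 and -1.32) and in 3B3-3l (-0.48 and -1.35), all passing.

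Usp7 (chr16:8688722-8757067) rose in 2i in J1. Its brighter probe (A_55_P1970935) read 4.34, 3.95, 4.10 and 4.02 in J1 in serum and 4.43, 4.58 and 4.59 in 2i. TKO read 4.62 and 4.61 in serum and 4.60, 4.64 and 4.61 in 2i, and 3B3-3l read 5.13 and 5.28 in serum and 4.94 and 4.80 in 2i. The media overlapped in TKO alone. The rise in J1 was 1.34-fold (0.42 ± 0.10, adjusted p = 0.0033). TKO differed by 0.002 (interval -0.26 to 0.26) and 3B3-3l by -0.34 (adjusted p = 0.083). The 3B3-3l response differed from that of J1 by -0.76 (adjusted p = 0.004), and by -1.06 under normexp background correction, past 2-fold. In serum Usp7 was higher than in J1 by 0.51 in TKO (adjusted p = 0.0029) and by 1.098 in 3B3-3l (adjusted p = 5.9e-06). The latter was 0.86 with slide as a block, 0.84 under quantile normalization and 0.83 in the authors' deposited table, under 2-fold in each. The second probe (A_66_P136834) was dim, and well above background on 1 of 4 J1 arrays in serum and 1 of 2 3B3-3l arrays in 2i. It rose by 0.82 in J1 and 0.84 in TKO (1.05 without TKO-serum replicate 1), and differed by -0.54 in 3B3-3l (adjusted p = 0.075). Its 3B3-3l response differed from J1 by -1.37 (adjusted p = 0.0017) and from TKO by -1.38 (adjusted p = 0.005), and under normexp background correction these were -0.95 and -0.93, under 2-fold. The probes of Usp7 thus disagreed in TKO.

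Tdg (chr10:82629814-82650799) had 3 probes that did not follow each other. The brightest (A_55_P2044091) read 0.59, 1.22, 1.07 and 1.19 in J1 in serum and 0.58, 0.78 and 0.62 in 2i, where the media overlap (-0.36 ± 0.17, adjusted p = 0.10). In TKO it read 1.05 and 1.44 in serum and 0.46, 0.62 and 0.86 in 2i, a fall (-0.60, adjusted p = 0.039). In 3B3-3l it read 0.91 and 0.66 in serum and 0.71 and 1.05 in 2i, which overlap (0.09, adjusted p = 0.86). On the second probe (A_55_P2121364) Tdg fell by 0.64 in J1 (adjusted p = 0.011) and differed by -0.05 in TKO and 0.37 in 3B3-3l. Its 3B3-3l response differed from that of J1 by 1.01 (adjusted p = 0.025), a call lost without any 1 of 6 arrays: J1-serum replicate 2 (0.99) or 3 (0.92), J1-2i replicate 2 (0.94), 3B3-3l-serum replicate 1 (0.82), 3B3-3l-2i replicate 1 (0.98) or replicate 2 (1.03, adjusted p = 0.058). It was also lost under normexp background correction (0.69, adjusted p = 0.16), quantile normalization (0.96), array median scaling (0.97), without a filter on dim probes (adjusted p = 0.0504) and with the replicate block (adjusted p = 0.068). The dim probe (A_66_P116265) was not well above background on any J1 array in 2i. It was at least 2.16-fold higher in J1 in serum (adjusted p = 0.0016), at least 2.15-fold higher in TKO in 2i (adjusted p = 0.0072) and at least 2.10-fold higher in 3B3-3l in 2i (adjusted p = 0.009). These bounds set the mean of the brighter group against the lowest signal called above background on each array of the other. In the brighter groups 3 of 4 J1 arrays in serum and 2 of 3 TKO arrays in 2i were well above background. The remaining arrays entered those means as measured, so the bounds are approximate. The 3B3-3l call was lost with slide as a block (adjusted p = 0.32) and without 3B3-3l-2i replicate 1. With slide or scan day as a block the second probe was called there instead (1.302, adjusted p = 0.022 and 0.019). Without a block the dim probe alone gave the single gene called in each of TKO and 3B3-3l against J1 in 2i.

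**Figure D4:**
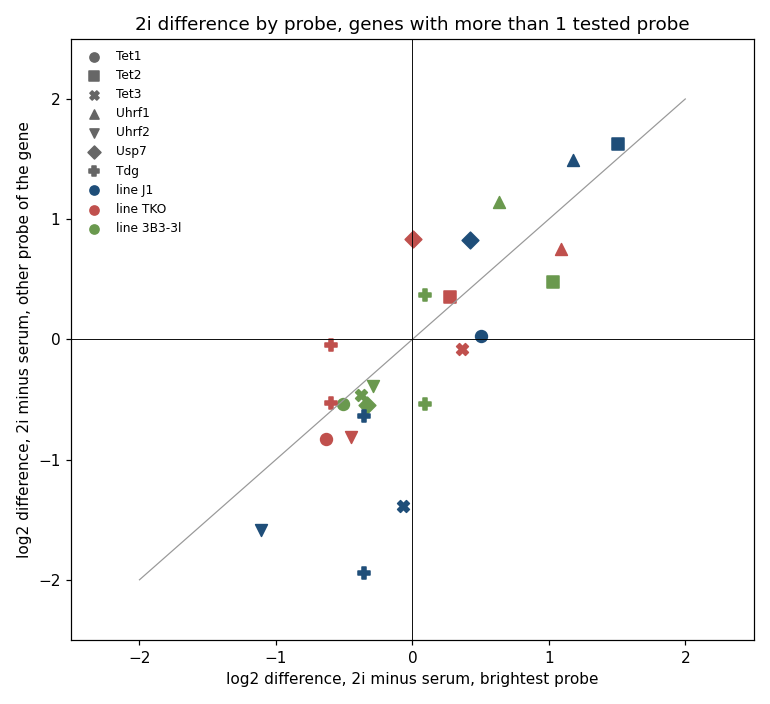
Log2 difference between 2i and serum on the brightest probe (horizontal) and on each other tested probe of the same gene (vertical), by gene (shape) and line (colour). The grey line marks equal values. Tet2, Uhrf1 and Uhrf2 have the same sign on both probes in every line, and Tet3, Tdg and Usp7 each have a point far from the line of equal values, the lowest being the dim Tdg probe in J1, plotted as measured although not well above background in 2i.

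Smug1 (chr15:103153290-103168939), a glycosylase for uracil and hydroxymethyluracil, had 1 probe and rose in 2i in each line. It read 0.11, -0.041, 0.0074 and 0.074 in J1 in serum and 0.83, 0.77 and 0.84 in 2i. TKO read -0.33 and -0.027 in serum and 0.92, 0.88 and 1.04 in 2i, and 3B3-3l read -0.090 and -0.17 in serum and 1.04 and 1.65 in 2i. All 8 arrays in 2i lie above all 8 in serum. The rise was 1.71-fold in J1 (0.78 ± 0.13, adjusted p = 0.00025), 2.18-fold in TKO (1.13 ± 0.15, adjusted p = 9.2e-05) and 2.79-fold in 3B3-3l (1.48 ± 0.17, adjusted p = 2.7e-05). The 3B3-3l response exceeded that of J1 by 0.70 (adjusted p = 0.026), and TKO differed from J1 by 0.35 (adjusted p = 0.24). Without TKO-serum replicate 1 the TKO rise was 0.97, and without 3B3-3l-2i replicate 1 the difference of responses was 1.01, past 2-fold. Its window is shown because it held the ETS core at 2 places, a word in 12% of all windows, and CCAAT.
Smug1, chr15:103163285-103163534, - strand: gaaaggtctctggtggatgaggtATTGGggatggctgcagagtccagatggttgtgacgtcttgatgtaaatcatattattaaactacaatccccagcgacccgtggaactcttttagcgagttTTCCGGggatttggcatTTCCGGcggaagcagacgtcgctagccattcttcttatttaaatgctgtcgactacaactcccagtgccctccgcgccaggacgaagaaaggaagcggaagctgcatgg

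Gadd45a (chr6:67035096-67037407), a growth arrest and DNA damage gene proposed as an adaptor in active demethylation, fell in 2i in each line. Its 1 probe read 2.15, 2.63, 2.58 and 2.63 in J1 in serum and 0.86, 0.91 and 0.89 in 2i. TKO read 2.03 and 1.96 in serum and 0.83, 0.54 and 0.82 in 2i, and 3B3-3l read 2.73 and 3.07 in serum and 0.59 and 0.79 in 2i. The serum arrays lie above all arrays in 2i, and J1-serum replicate 1 lies below the other J1 arrays in serum. The fall was 3.05-fold in J1 (-1.61 ± 0.13, adjusted p = 5.9e-07), 2.40-fold in TKO (-1.26 ± 0.16, adjusted p = 5.1e-05) and 4.63-fold in 3B3-3l (-2.21 ± 0.18, adjusted p = 1.2e-06). The response in 3B3-3l was larger than in TKO (-0.95 ± 0.24, adjusted p = 0.019), and the other differences of response did not pass. It was past 2-fold without TKO-2i replicate 2 (-1.04), 3B3-3l-serum replicate 1 (-1.12) or 3B3-3l-2i replicate 2 (-1.05). In serum 3B3-3l was called higher than TKO with slide as a block (1.35, adjusted p = 0.0031), with scan day as a block (1.37, adjusted p = 0.0014) and without 3B3-3l-serum replicate 1 (1.08), though not over all arrays without a block. In serum Gadd45a was lower than J1 in TKO (-0.50, adjusted p = 0.02) and higher in 3B3-3l (0.41, adjusted p = 0.045). In 2i the 3 lines differed by 0.19 or less, and none of these differences passed. Its window held the octamer word on each strand, a word in 1.60% of all windows, with CCAAT between the copies and an ETS core.
Gadd45a, chr6:67037408-67037657, - strand: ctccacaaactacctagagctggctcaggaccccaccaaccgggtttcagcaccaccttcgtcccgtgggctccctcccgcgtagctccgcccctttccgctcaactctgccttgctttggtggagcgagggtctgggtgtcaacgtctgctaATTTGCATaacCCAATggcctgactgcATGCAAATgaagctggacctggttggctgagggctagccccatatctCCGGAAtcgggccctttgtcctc

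The windows of Tet1, Tet2 and Uhrf2 held none of the 13 words. CG dinucleotides, the sites of DNA methylation, numbered 10 to 55 in the 10 windows of these genes, against a median of 6 over all windows. Usp7 (55) and Tet2 (51) had the most and the first Uhrf1 start (10) and Gadd45a (11) the fewest.

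Other candidates for demethylation were taken from a list of 9 genes, 8 of them tested. In J1 in 2i 3 rose and 3 fell, where 32.6% of named genes rose and 27.2% fell. In TKO 2 rose and 1 fell, and in 3B3-3l 2 rose and 2 fell. Gadd45g, a paralogue of Gadd45a, fell in each line (-3.80 in J1, -3.02 in TKO and -3.18 in 3B3-3l). Gadd45b fell by 1.17 in J1 and rose by 0.71 in TKO, and its difference in 3B3-3l was -0.17. Apobec2, a member of the cytidine deaminase family, rose in each. It was not well above background in serum in J1 and 3B3-3l, and was at least 3.36-fold higher in 2i in J1 (adjusted p = 7.9e-08), higher by 1.23 in TKO and at least 1.27-fold higher in 3B3-3l (adjusted p = 0.029). Dppa3, which protects methylation in the early embryo, fell by 0.84 in J1. It was not well above background in 3B3-3l in 2i, and was at least 21.1-fold higher in 3B3-3l in serum and at least 13.5-fold higher in J1 in 2i (both adjusted p = 1.5e-09). Of 17 genes of base excision repair, 6 rose and 1 fell in J1, 6 rose and 1 fell in TKO, and 4 rose and 2 fell in 3B3-3l, where 32.6%, 22.8% and 17.4% of named genes rose and 27.2%, 19.8% and 17% fell. The medians were 0.22, 0.31 and 0.22 against 0.05, 0.07 and 0.003 over all named genes. Neil2, a glycosylase, was called in TKO (1.54). Of 15 tested TET cofactors and partners, 6 rose in J1, 5 rose and 1 fell in TKO, and 2 rose and 1 fell in 3B3-3l, against the same shares. Their medians were 0.20, 0.34 and 0.28, against the same medians of all named genes. Idh1, a source of the cosubstrate oxoglutarate, rose by 1.06 in TKO and 1.56 in 3B3-3l and differed by 0.20 in J1. Hdac2 rose by 1.04 in J1.

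The second question was how the lines differ within a medium. In serum, 3 of the 10 genes were called in TKO against J1 (background 19%) and 5 in 3B3-3l against J1 (22.6%). The genes called higher in both mutants were Tet1 and Prdm14. Tet2 and Usp7 were called higher in 3B3-3l and passed under 2-fold in TKO, and Uhrf1 passed as higher in both under 2-fold, in TKO on its second probe alone. Uhrf2 was called lower in both. These comparisons share the J1 serum arrays, the only group that the methods describe as grown on feeder cells. In 2i, 1 gene was called in TKO against J1 (8.49%) and 1 in 3B3-3l against J1 (16.9%), Tdg in both, on its dim probe. Between the mutant lines none was called in serum by limma without a block (12.6% of named genes were, 4 of the 10 passed without the fold limit against 36.7%, and 4 had an unadjusted p under 0.05), Gadd45a was called there with slide or scan day as a block, and Tet2 was called in 2i (11.9%). The difference of responses was called for 3 genes in TKO against J1 (17.4%), for 6 in 3B3-3l against J1 (19.9%) and for 1, Usp7 on its dim probe, in 3B3-3l against TKO (11.2%). Without the fold limit, the 2i difference passed for all 10 genes in J1 (59% of named genes), 8 in TKO (42.3%) and 6 in 3B3-3l (34.4%). In serum 7 of the 10 passed in TKO against J1 (50.1%) and 7 in 3B3-3l against J1 (57.3%). In 2i 3 passed in TKO against J1 (29.6%), 5 in 3B3-3l against J1 (48.4%) and 3 in 3B3-3l against TKO (37.3%). The difference of responses passed for 5 in TKO against J1 (33.9%), 8 in 3B3-3l against J1 (35.6%) and 2 in 3B3-3l against TKO (18.5%).

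The same lists were compared in serum, where 25.5% of named genes were higher and 25% lower in TKO than in J1, and 33.6% higher and 24.5% lower in 3B3-3l. Of 17 repair genes 3 were higher and 4 lower in TKO, and 7 higher and 2 lower in 3B3-3l. Apex1, the abasic site endonuclease, was called higher in both (1.08 and 1.23) and Neil2 lower in both (-2.11 and -2.13). Of 19 S phase genes 7 were higher in TKO and 10 in 3B3-3l, with 1 lower in each, and the medians were 0.30 and 0.43 against 0.01 and 0.13 over all named genes. Of the 8 other candidates tested, 2 were higher and 3 lower in each of TKO and 3B3-3l, where 1 of the 2 in 3B3-3l, Apobec2, was not well above background in either group. Apobec1, a cytidine deaminase, was lower than in J1 in TKO (-0.92) and called lower in 3B3-3l (-1.37). Gadd45g was lower than in J1 in TKO (-1.10) and in 3B3-3l (-0.95), Gadd45b was lower in both (-1.82 and -0.92) and Apobec2 was at least 1.54-fold higher in TKO (adjusted p = 6.3e-05). Of 15 TET cofactors and partners 3 were higher and 1 lower in TKO, and 7 higher and 2 lower in 3B3-3l, where Hdac1 (1.42) and Idh1 (-1.15) were called. Of the 7 Prdm14 partners 4 were higher and 1 lower in TKO, none of them called, and 3 were higher and none lower in 3B3-3l. These 3 were called, Jarid2 (1.53), Tfap2c (1.04) and Eed, whose probe was saturated on both 3B3-3l arrays and which was at least 2.32-fold higher (adjusted p = 4e-06). Of 10 maintenance partners 2 were higher and 1 lower in TKO, the deleted Dnmt1, and 6 were higher in 3B3-3l.

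**Figure D5:**
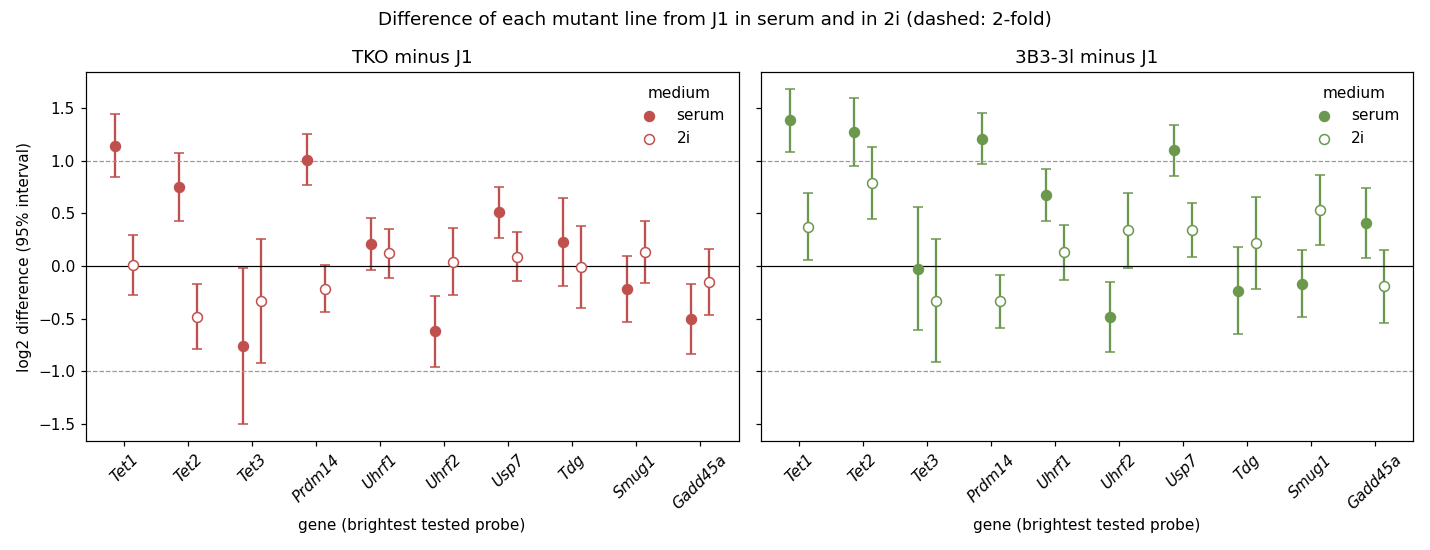
Log2 difference of TKO (left) and 3B3-3l (right) from J1 in serum (filled) and in 2i (open) for the brightest tested probe of each gene, with unadjusted 95% intervals. In TKO the Tet1 difference is 1.14 in serum and 0.01 in 2i, and the Prdm14 difference 1.01 and -0.21.

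The arrays lay on 3 slides, and the 3B3-3l arrays shared theirs with J1-serum replicate 1 alone, on the second scan day. Within the slide that held J1 and TKO in both media, the 2i differences in J1 and TKO were 2.85 and 1.53 for Prdm14, 1.67 and 0.22 for Tet2, 0.58 and -0.61 for Tet1, 1.23 and 1.02 for Uhrf1, 0.80 and 1.14 for Smug1, -1.07 and -0.44 for Uhrf2, and -1.73 and -1.31 for Gadd45a. Each of these has the sign of its value over all arrays. The brighter Tet3 probe changed sign in both lines, at 0.12 in J1 and -0.06 in TKO on that slide. On that slide the serum differences of TKO from J1 were 1.12 for Tet1, 0.82 for Tet2 and 1.02 for Prdm14. Within the slide of 3B3-3l, its serum differences from J1-serum replicate 1, a lone array, were 1.36 for Tet1, 0.96 for Tet2, 1.28 for Prdm14 and 0.86 for Usp7, the last with an adjusted p of 0.056 by limma. The second Tet3 probe (-0.90, against 0.29 over all arrays) and all 3 Tdg probes (0.19, 0.20 and -0.10, against -0.23, -0.09 and 0.50) changed sign there, and none of these passed in either. No J1 or TKO array in 2i was on that slide, so within it line and slide cannot be compared in 2i.

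For 5 of the genes the named genes with the most similar levels over the arrays were listed, as a description. Arrays of a group share their culture condition, which these correlations include. Prdm14 was most like Zfp607b (r = 0.989) and Tfap2a (0.988) over 16 arrays. Uhrf1 was most like Mapk8ip2 (0.992), Il6ra (0.986) and Mgrn1 (0.982). Tet2 was most like Trpa1 (0.968), Eif4ebp3 (0.963) and Arl5c (0.961), and Tet1 was most like Mtrex (0.961), Cpsf6 (0.959) and Mdn1 (0.956). The best matches of Tet3, over the 13 arrays with a value, were lower, at 0.895 for B230369F24Rik, 0.857 for Greb1 and 0.855 for Myo1c. Over the 6 group means r was 0.014 for the first of these, which so did not share the pattern over conditions, and 0.846 and 0.877 for the others.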

How the data were processed

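RNA of 16 ES cell samples was labelled with Cy3 and hybridised to one-colour Agilent mouse gene expression arrays. The authors deposited 1 scanner text file per array, made with Feature Extraction 11.5.1.1, and a table of 30170 probes. The deposited scanner columns hold intensity on a linear scale (processed signal, median signal and background), with flags per spot. Per the labels and from its values, the authors' deposited table holds log2 values, with column medians from 8.28 to 8.43, and was used as an alternative. How it was normalized is not given in the sources used here. Of its 16 columns 3 matched their own array best, and all 16 an array of their own group.

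Control and outlier spots were removed but not saturated ones, and the spots of each probe were averaged. The value was log2 of the processed signal minus that of the array's 75th percentile over non-control spots. A probe counted as well above background where 50% or more of its spots on the array carried that flag. Of 55681 probes, 27126 had this on every array of at least 1 group and were tested. Probes were named through RefSeq identifiers (28026 probes of 21154 genes). A gene was represented by its tested probe with the highest mean. One limma fit (version 3.58.1, R 4.3.3) of 6 group means gave 12 contrasts, with Benjamini-Hochberg adjustment over all tested probes in each. The number of arrays limits the precision. On simulated data of 26238 probes, responses of 1 log2 unit were recovered in 70% of cases in J1, 54% in TKO and 46% in 3B3-3l. Responses of 2.5 were recovered in 94%, 88% and 88%. Recovery was counted on adjusted p without the 2-fold limit, so it is not the rate of calls. In each simulated comparison 50 probes had each size of response and 26038 had none, whereas in the data 59% of named genes passed in J1. The adjustment is stricter where fewer probes change, so these shares may be too low for the data.

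The 10 genes and all gene lists were chosen with earlier results of these data known. Every probe of the 10 genes was named. From each list, counts were given with up to 4 called genes per comparison, those with the largest change, and a few others were chosen after their values were seen. Some genes that these rules name are not reported here. Fibroblast, ES cell and primitive endoderm markers were summed on the linear scale. Alternatives were other background corrections and scalings, the deposited table, other filters, slide, scan day and replicate number as blocks, fewer arrays, no fold limit and an unmoderated 2-sample test.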

Additional observations from a re-analysis of the deposited data

Results flagged for a closer look

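Gadd45a in J1-serum replicate 1 had a level of 2.15, with the other J1 arrays in serum at 2.58 to 2.63. The gap to the nearest of them was 0.895 of the range of the 4. No other probe screened had such a gap, and a Tet3 probe (A_52_P491273) with 3 values in J1 in serum was not screened. Chance gives about 1 in 20 such groups, so 1 in a screen of this size is not unusual. That array was on the slide of the second scan day.

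Responses to 2i differed from J1 by limma's test of the difference, with at least a 2-fold size, in the following cases. In TKO they were Prdm14 (-1.22), Tet1 on its brighter probe (-1.13) and Tet2 on both probes (-1.28 and -1.23). In 3B3-3l they were Prdm14 (-1.54), Tet1 on its brighter probe (-1.01), Tet2 on its second probe (-1.15), Uhrf2 on its second probe (1.19), Tdg on its second probe (1.01) and Usp7 on its dim probe (-1.37). That Usp7 probe also differed between 3B3-3l and TKO (-1.38). The differences from J1 include the J1 serum arrays, in which summed fibroblast markers were 26.1 to 32.4 against 2.45 to 2.84 in J1 in 2i. The part of these markers' cells was not tested.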

How the results depend on the processing

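Of 216 probe results for the 10 genes, 43 were called, and 21 of these stayed called under each of up to 30 alternatives. The other 22 lost the call under at least 1. Of the 173 not called, 16 were called under some alternative, and no called result changed sign. Between the 2-fold calls and adjusted p alone (no fold limit), the number of genes became 8 in the TKO response (42.3% of all named genes passed), 7 in TKO against J1 in serum (50.1%) and 4 in 3B3-3l against TKO in serum (36.7%). In 2i it became 3 in TKO against J1 (29.6%), 5 in 3B3-3l against J1 (48.4%) and 3 in 3B3-3l against TKO (37.3%). For differences of response it became 5 in TKO against J1 (33.9%) and 2 in 3B3-3l against TKO (18.5%). The unmoderated 2-sample test called 0 genes in the 3B3-3l response and 0 in TKO against J1 in 2i. Over all tested probes it called 45 and 1421 in these comparisons, against 2980 and 2078 by limma. In the 3B3-3l response it ended the calls of Prdm14 (adjusted p = 0.15), Uhrf1 on its second probe (0.14), Smug1 (0.22), Gadd45a (0.12) and Tet2 (0.08). The deposited table held 15 of the 18 tested probes of the 10 genes. It gave 3 genes for the difference of response between 3B3-3l and J1, and 0 between 3B3-3l and TKO. The Usp7 and Tdg probes called there in the scanner data were not among the 15, so their calls were lost without a test. Tet1 fell under 2-fold (-0.97) in 3B3-3l against J1. Between 3B3-3l and TKO normexp background correction also gave 0, with the dim Usp7 probe tested (-0.93). A filter of well above background on all 16 arrays gave 0 genes for TKO against J1 in 2i, for 3B3-3l against J1 in 2i and for the difference of response between 3B3-3l and TKO. It left 15 of the 18 tested probes. The dim Tdg probe and the dim Usp7 probe, which alone gave these calls, were removed by it, so the calls were lost without a test. With slide or with scan day as a block, 3B3-3l against TKO gave 0 genes in 2i and 1 (Gadd45a) in serum. Over all tested probes, slide as a block called 1923 in 2i and 2083 in serum, scan day 1968 and 2171, and the fit without a block 2822 and 2895. Arrays of slide 1 only, chosen after seeing the data, gave 2 genes for TKO against J1 in 2i. These were Tdg on its dim probe and Tet3 on its second probe (1.38, adjusted p = 0.047 by limma). Leaving out 1 array gave 0 to 2 genes for 3B3-3l against J1 in 2i, 0 to 1 for 3B3-3l against TKO in serum and 1 to 2 for the difference of response between 3B3-3l and TKO. The gene gained for 3B3-3l against J1 in 2i was Tet3 on its second probe (1.21 without J1-serum replicate 1 and 1.56 without J1-2i replicate 2). Where this left 1 array in a group, that array was assumed to vary like the other groups.

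Replicate numbers did not pair the arrays (deviations of same-numbered arrays correlated at -0.27 to 0.29, mean -0.0099). With the replicate block, 6 genes were called in the J1 response, 5 for the difference of response between 3B3-3l and J1, and 4 in TKO against J1 in serum, and no other of the 12 counts moved. Over all tested probes that block called 5531, 3995 and 4359 in these 3 comparisons, against 5681, 4150 and 4163 without it. Scaling to array medians moved the median of all tested probes by 0.16 in the J1 response, 0.13 in the 3B3-3l response, -0.14 in the TKO minus J1 response and 0.10 in the 3B3-3l minus TKO response. The tests had 2 arrays in 3 of the 6 groups, and the dim probes of Tdg, Tet3 and Usp7 were near background, which limits both.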
